A study of Rattus norvegicus with 6 samples.

Results

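The genes described here are 37 genes of the interferon response and of antigen processing, measured in regenerated sciatic nerve of the rat. They were taken by symbol from a table of 23091 genes, using the entry of highest total count for any symbol listed more than once. Male Sprague-Dawley rats of wild-type (WT) genotype had a defect made in the sciatic nerve. In the GDNF-Gel/HA-Mg group (3 libraries, called implant 1, implant 2 and implant 3) GDNF-Gel/HA-Mg was implanted in the defect, a nerve conduit whose name carries GDNF, glial cell line-derived neurotrophic factor. In the NC group (3 libraries) the wound was closed with no treatment, so both groups carry the nerve defect. The labels give neither the age of the rats nor the time after surgery. Since nothing in them ties each library to its own animal, the p-values below refer to the spread among these samples alone, which may be technical.

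Interferons are cytokines that signal through paired receptors and the Janus kinases to the STAT transcription factors. Type I and type III interferons assemble a complex of STAT proteins and Irf9 on the interferon-stimulated response element (ISRE), while interferon gamma acts through STAT dimers on the gamma-activated site (GAS). The genes switched on in this way sense viral RNA, block viral replication, attach the ubiquitin-like protein ISG15 to other proteins, and cut and load peptides for display on major histocompatibility complex (MHC) class I. The 37 genes fall into 8 role groups along that path. In injured nerve, Schwann cells, macrophages and lymphocytes can all express such genes. In RNA from whole nerve, fewer cells of a type and less RNA per cell cannot be told apart.

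The total count was 16120508, 18491375 and 17619210 in implant 1, implant 2 and implant 3, against 16421653, 15897844 and 17990050 in NC 1, NC 2 and NC 3. All 37 genes passed the filter on low counts, as did 13999 genes in all. Levels are given as CPM, counts scaled to the library total after it was multiplied by the library's TMM scaling factor. That factor was lowest in NC 3 (0.7693) and highest in NC 1 (1.1736). Markers of the Schwann lineage were present, with 6 of 6 tested and a summed level of 991 to 1943 CPM in the implant libraries, against 788 to 3393 CPM in the NC libraries. Of the 37 genes, 12 had estimated counts that were not whole in some library, among them Irf9, Isg15 and Tapbp in all 6, so part of their reads was shared with other genes by estimation. The libraries differed widely in their tissue markers. The 8 markers of myelinating Schwann cells summed to 993 to 18672 CPM in the implant libraries and to 1066 to 37136 CPM in the NC libraries. The 7 of 8 skeletal muscle markers tested differed most. They summed to 78.4, 1497 and 7844 CPM in implant 1, 2 and 3, against 26.1, 343 and 1252 CPM in NC 1, 2 and 3. Haemoglobin genes took 8.08 to 14.8% of counts in the implant libraries and 1.02 to 25.2% in the NC libraries.

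None of the 37 genes passed a test of difference between the groups. By edgeR (quasi-likelihood, Benjamini-Hochberg adjusted over 13999 genes) 0 of the 37 were called, with an adjusted p of 1 for each, and 0% of all genes were. DESeq2 called 0 of the 37, against 11 of 13956 genes (0.0788%), and limma-voom called 0. At an unadjusted p under 0.05, edgeR had 0 of the 37, against 241 of 13999 genes (1.72%). The implant and NC libraries did not overlap for 0 of the 37, against 5.69% of all genes, of which 2.81% had the implant libraries higher. The log2 fold change of implant over NC ran over the 37 genes down to -0.51 for Rsad2 and up to 0.65 for Ifit3. Its median was 0.06 with 23 of 37 positive, beside -0.01 over all genes tested. The median depended on single libraries, being -0.21 with 12 of 37 positive without implant 2 and -0.21 with 10 of 37 positive without NC 2. It reached 0.31 with 32 of 37 positive without implant 3.

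These data bound the differences only loosely. The 95% interval of the fold change excluded a 2-fold difference in either direction for 17 of the 37 genes (45.9%), against 65.8% of all genes tested. It excluded a 4-fold difference for 30 of the 37. The highest library exceeded the lowest by a median of 2.70-fold over the 37 genes, against 1.68-fold over all genes. The antiviral effectors had the widest median span of the groups with 3 or more genes, 5.38-fold, and none of the 10 had an interval within 2-fold. The 4 peptide-loading genes all had one. In the plot of fold changes, the widest bars belong to Rsad2, Isg15 and Oas2.

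**Figure D1:**
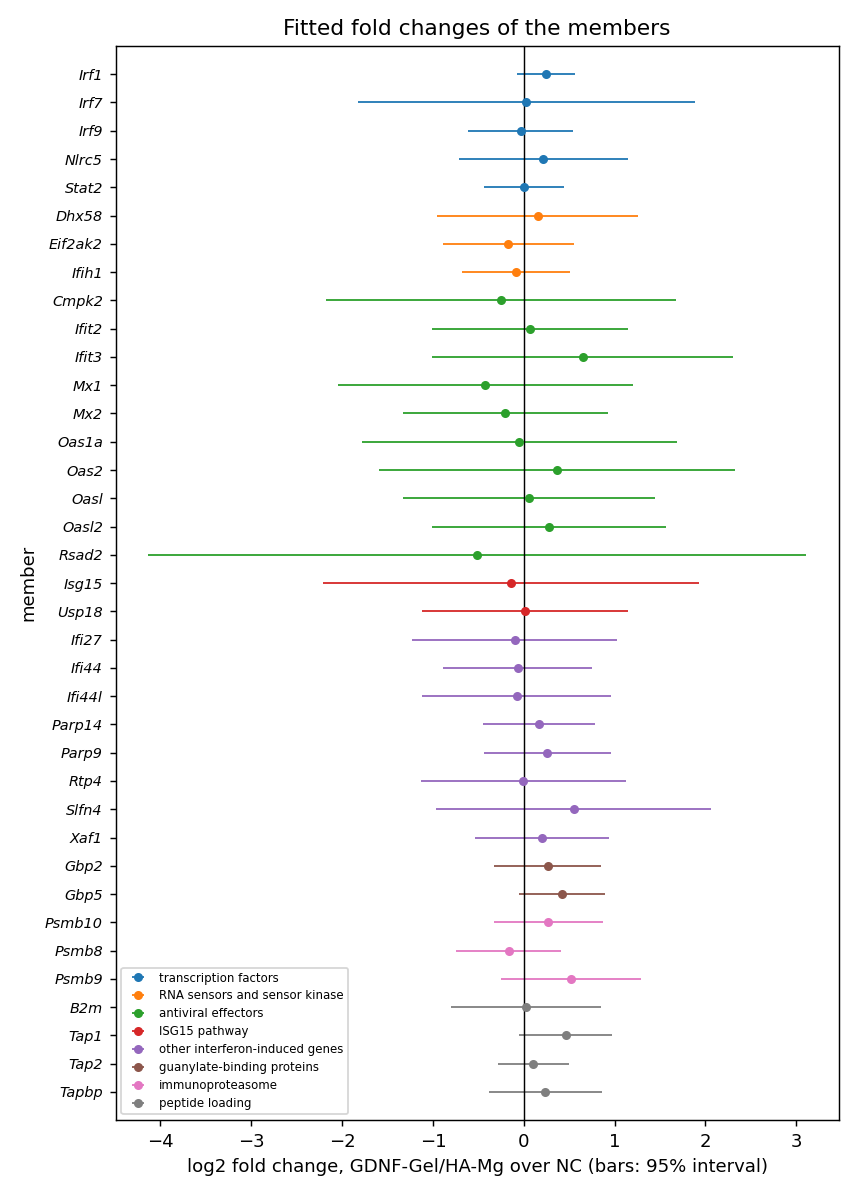
Fitted log2 fold change of GDNF-Gel/HA-Mg over NC (x axis) for each of the 37 genes (y axis), coloured by role group, with bars for the 95% interval of edgeR's fit (3 libraries a group). Every interval crosses 0, and the points run between -0.51 for Rsad2 and 0.65 for Ifit3.

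The genes varied together from library to library, within both groups. Implant 2 was above the gene's own mean over the 6 libraries for 37 of 37 genes, where 50.9% of all genes were, and NC 2 was below it for 37 of 37, where 49% of all genes were. Implant 2 was the highest library for 25 of the 37, against 15.1% of all genes, and NC 2 the lowest for 27, against 21.8% of all genes. Implant 3 held the lowest value for 9 genes, 5 of them antiviral effectors. Averaged over the 37 genes on the log2 scale and centred on the 6 libraries, the level was 0.05, 0.58 and -0.36 in implant 1, 2 and 3, against 0.25, -0.84 and 0.32 in NC 1, 2 and 3. Each group thus held libraries on both sides of the mean. All genes of a library share its depth, preparation and tissue mix, so the common order of the 37 genes is given as a description.

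**Figure D2:**
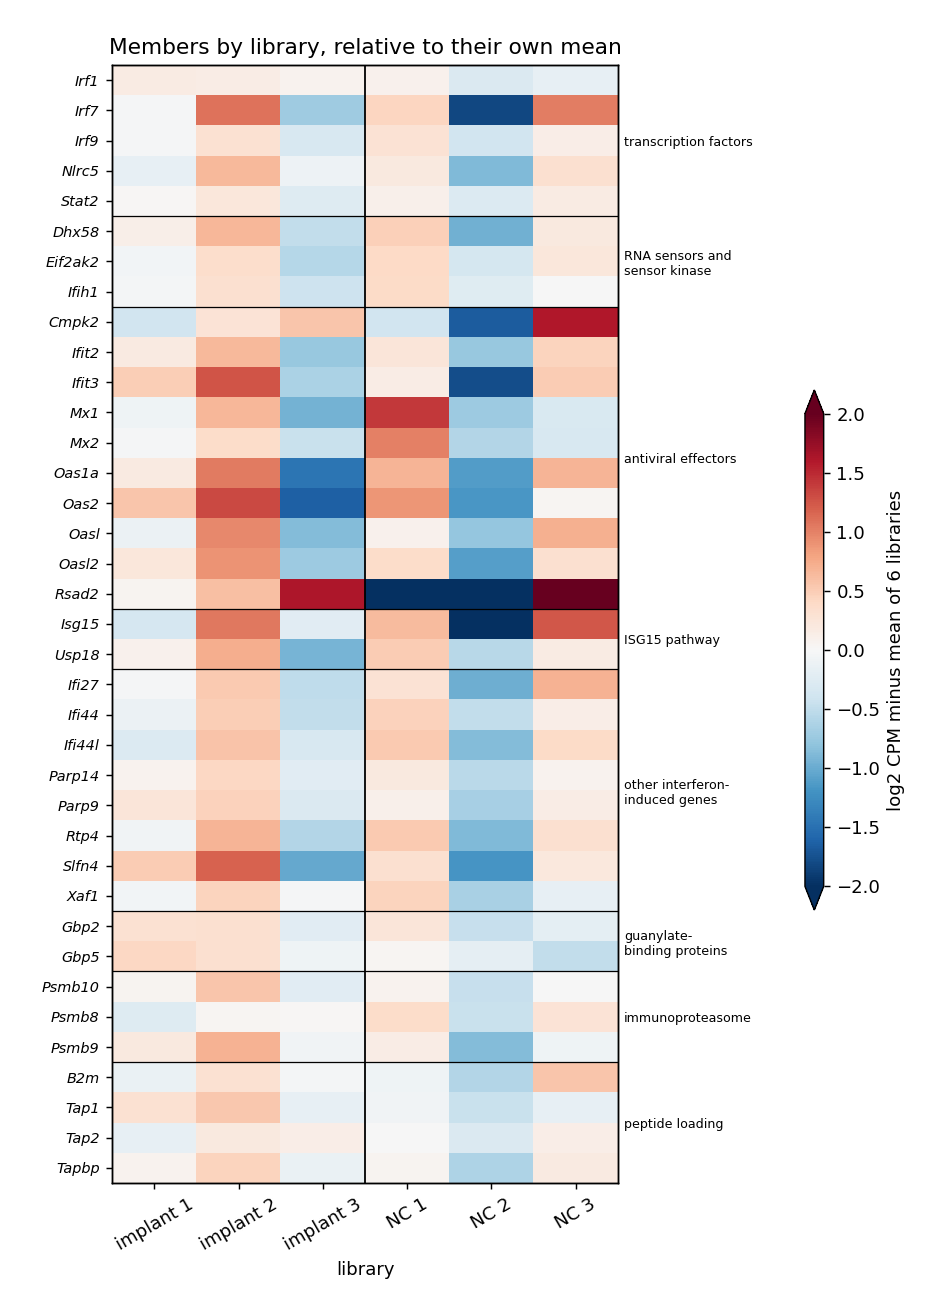
Level of each of the 37 genes (rows, by role group) in each library (columns, implant libraries left of NC libraries), as log2 CPM minus the gene's mean over 6 libraries, with red above and blue below it. Implant 2 is above the mean and NC 2 below it in every row, while implant 3 is mostly below it and NC 1 mostly above it.

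Markers of other cell types differed between the libraries too, some in the order of the interferon genes and some not. The 12 of 15 markers of T and natural killer (NK) cells that were tested summed to 31.8 to 84.7 CPM in the implant libraries and to 19.9 to 53.6 CPM in the NC libraries, and their log2 level was highest in implant 2 (1.05) and lowest in NC 2 (-1.10), the 2 extremes of the interferon genes. The 12 of 12 monocyte and macrophage markers summed to 918 to 1190 CPM in the implant libraries, against 815 to 1352 CPM in the NC libraries, in another order, with log2 levels of -0.04, 0.06 and 0.20 in implant 1, 2 and 3 and -0.25, -0.26 and 0.28 in NC 1, 2 and 3. The 6 of 6 markers of B and plasma cells summed to 32.3 to 51.1 CPM in the implant libraries, against 9.83 to 52.7 CPM in the NC libraries. Their log2 levels of 0.31, 0.46 and -0.68 in implant 1, 2 and 3 and 0.57, -1.47 and 0.81 in NC 1, 2 and 3 had the sign of the interferon level in all 6 libraries. NC 2 was also the lowest library, in log2 level, for the adipocyte (-1.02), endothelial (-0.54), neutrophil (-1.82) and red cell (-3.06) lists. The same held for the monocyte and macrophage, B and plasma cell, and plasmacytoid dendritic cell (-0.47) lists. NC 2 was not the lowest for the myelinating Schwann cell, Schwann lineage, fibroblast and skeletal muscle lists. The 7 of 10 neutrophil markers tested summed to 186 to 345 CPM in the implant libraries, against 33.5 to 322 CPM in the NC libraries. Of the plasmacytoid dendritic cell markers, 4 of 6 were tested and summed to 145 to 262 CPM in the implant libraries, against 118 to 255 CPM in the NC libraries. Of these, Bst2 and Irf8 are also in the wider pathway lists below, Bst2 as an interferon-induced gene. Bst2 alone had 101, 174 and 64.6 CPM with the implant, against 145, 49.5 and 119 CPM in NC. The defining marker Siglech had counts of 5, 14 and 3 in the implant libraries and 42, 1 and 1 in the NC libraries. The myelin markers ran the other way, at log2 levels of 1.62, -2.28 and 1.86 in implant 1, 2 and 3 and -2.82, 2.75 and -1.13 in NC 1, 2 and 3. The 3 libraries with the least myelin RNA, implant 2, NC 1 and NC 3, were the 3 with the highest interferon level. The part of these cell types in the order of the interferon genes was not tested.

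**Figure D3:**
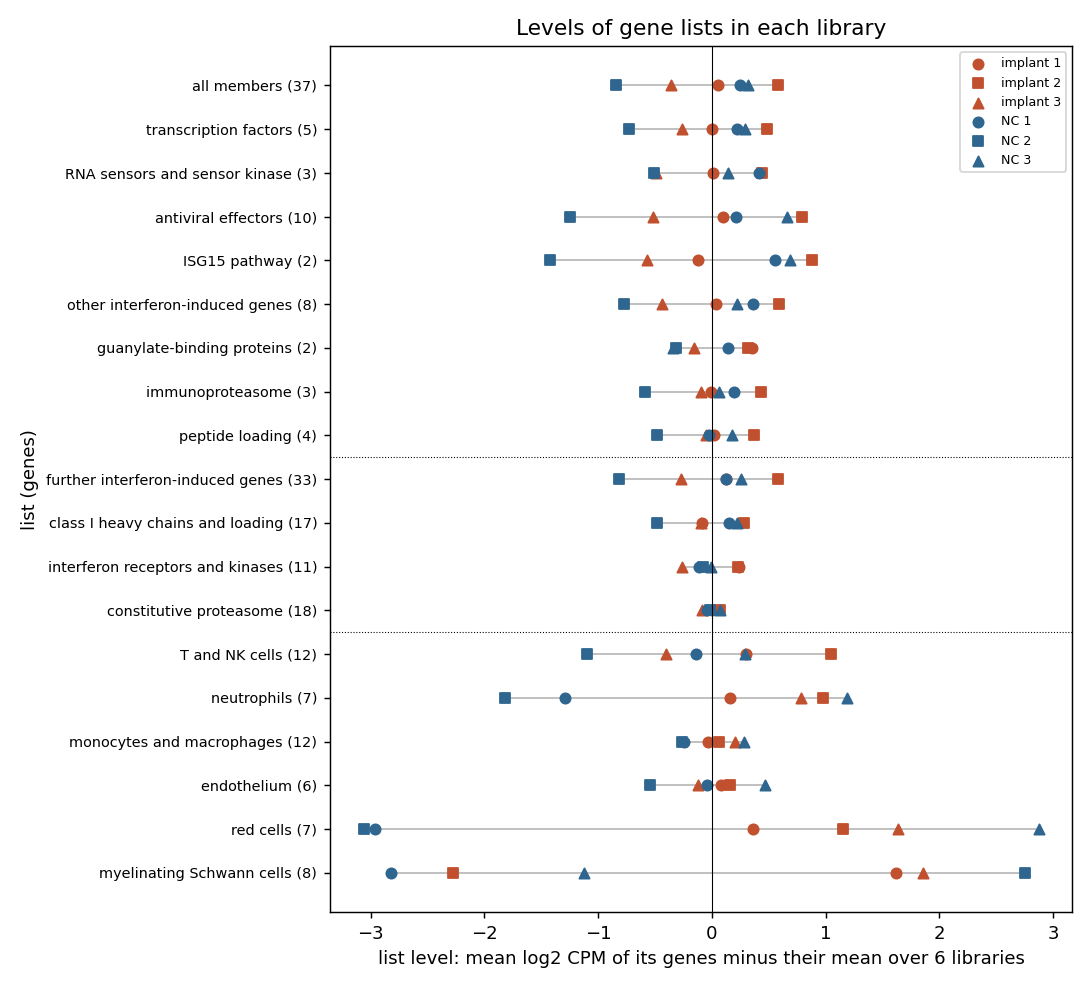
Level of each gene list (rows, with its number of genes) in each library, as the mean log2 CPM of its genes minus their mean over 6 libraries (x axis), in orange for the implant libraries and blue for the NC libraries. For the 37 genes together NC 2 is leftmost and implant 2 rightmost, the constitutive proteasome stays near 0 in every library, and the myelin list has implant 2 to the left and NC 2 to the right.

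Promoter sequence was read for the 29 of 37 genes with an entry in the RefSeq table of rat promoters (build GRCr8), each a window of 300 bases, 250 before and 50 after the start site. The core of an ISRE, read as GAAA, any 2 bases and GAAA again, occurred on either strand in 20 of the 29 windows (69.0%), against 3.92% of all 33469 windows. A GAS, read as TTC, any 3 bases and GAA, occurred in 6 of 29 (20.7%), against 8.87% of all windows. Both were found in 4, neither in 7, and in no window did they overlap each other. Of 17 promoters of constitutive proteasome genes, 2 held the ISRE letters. The following 7 stretches of 250 bases before the start site are shown because they belong to genes whose levels are described next and show how the matches lie, with matches in capitals. They are Irf7 (chr1:205800024-205800273, minus strand), Ifit3 (chr1:241527076-241527325, plus), Rsad2 (chr6:48788121-48788370, minus), Oas1a (chr12:41330216-41330465, plus), Tap1 (chr20:4668544-4668793, minus), Psmb10 (chr19:50743293-50743542, minus) and Irf1 (chr10:38417685-38417934, plus), written 5′ to 3′ on the strand of the gene.
Irf7: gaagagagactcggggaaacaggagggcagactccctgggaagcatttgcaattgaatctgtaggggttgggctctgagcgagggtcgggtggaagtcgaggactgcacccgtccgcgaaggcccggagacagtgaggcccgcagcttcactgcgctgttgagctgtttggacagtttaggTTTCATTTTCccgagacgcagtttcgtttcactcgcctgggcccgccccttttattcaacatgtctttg
Ifit3: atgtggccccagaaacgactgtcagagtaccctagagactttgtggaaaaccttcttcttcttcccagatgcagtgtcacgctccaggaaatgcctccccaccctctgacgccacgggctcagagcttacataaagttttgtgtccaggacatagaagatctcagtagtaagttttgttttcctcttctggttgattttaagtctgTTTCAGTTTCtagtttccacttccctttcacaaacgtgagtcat
Rsad2: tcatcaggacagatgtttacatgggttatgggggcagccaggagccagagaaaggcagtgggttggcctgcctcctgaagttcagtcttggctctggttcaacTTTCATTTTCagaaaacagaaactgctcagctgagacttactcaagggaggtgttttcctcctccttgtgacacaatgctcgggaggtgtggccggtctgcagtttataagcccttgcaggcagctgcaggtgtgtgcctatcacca
Oas1a: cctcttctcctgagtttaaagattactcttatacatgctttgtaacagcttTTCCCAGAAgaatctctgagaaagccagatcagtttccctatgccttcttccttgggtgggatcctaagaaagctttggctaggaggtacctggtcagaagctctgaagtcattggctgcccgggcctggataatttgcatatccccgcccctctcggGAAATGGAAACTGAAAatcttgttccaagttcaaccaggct
Tap1: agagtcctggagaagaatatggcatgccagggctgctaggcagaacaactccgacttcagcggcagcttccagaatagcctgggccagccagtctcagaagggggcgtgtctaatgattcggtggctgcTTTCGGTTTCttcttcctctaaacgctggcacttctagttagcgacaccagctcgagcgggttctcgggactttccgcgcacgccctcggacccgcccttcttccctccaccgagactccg
Psmb10: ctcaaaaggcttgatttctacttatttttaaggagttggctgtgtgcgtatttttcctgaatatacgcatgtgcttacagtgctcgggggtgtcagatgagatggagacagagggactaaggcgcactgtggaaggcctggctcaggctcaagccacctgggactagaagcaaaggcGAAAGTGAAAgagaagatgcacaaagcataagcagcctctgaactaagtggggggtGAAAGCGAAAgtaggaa
Irf1: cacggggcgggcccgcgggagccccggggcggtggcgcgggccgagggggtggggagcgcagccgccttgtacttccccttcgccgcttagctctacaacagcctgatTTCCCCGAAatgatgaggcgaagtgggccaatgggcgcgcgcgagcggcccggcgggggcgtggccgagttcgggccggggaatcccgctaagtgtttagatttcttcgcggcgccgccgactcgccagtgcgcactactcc
The ISRE letters began 69 bases before the start site in Irf7, 44 in Ifit3, 147 in Rsad2 and 121 in Tap1. Oas1a held 2 ISRE matches that share bases, the first 41 bases before the start, and a GAS match 199 bases before it. Psmb10 held 2 separate ISRE matches, the first 73 bases before the start. In Irf1 only the GAS letters were found, 142 bases before the start. A match is a match of letters, and binding was not measured.

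Among the transcription factors, Irf7, the factor that amplifies type I interferon production, had the widest range. It had 135, 290.3 and 83.4 CPM in implant 1, 2 and 3, against 184, 38.5 and 276 CPM in NC 1, 2 and 3. Of the 3 implant values 2 lay within the NC range, and the means were 169 ± 108 CPM in the implant libraries and 166 ± 120 CPM in the NC libraries (SD, n = 3 each), a log2 fold change of 0.03 ± 0.76 (SE). Stat2, the STAT partner of Irf9 on the ISRE, had 52.4, 59.9 and 43.2 CPM with the implant and 55.2, 42.5 and 57.5 CPM in NC, with overlapping groups. Irf1, a factor induced by interferon gamma that binds elements like the ISRE, had 54.1, 53.8 and 50.5 CPM with the implant, against 51.2, 39.4 and 43.0 CPM in NC. Here only the value of NC 1 lay within the implant range, and the log2 fold change was 0.25 ± 0.13 (SE) at an unadjusted p of 0.11 by edgeR. Irf9, which brings the STAT proteins to the ISRE, and Nlrc5, the transactivator of MHC class I genes, also had overlapping groups. The 5 factors had a median log2 fold change of 0.03, with 4 of 5 positive.

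The sensors of viral RNA overlapped between the groups. Ifih1, the sensor of long double-stranded RNA also called MDA5, had 36.6, 46.6 and 28.1 CPM with the implant, against 48.9, 31.7 and 37.3 CPM in NC. Dhx58, a helicase that modulates the sensors, had 9.42, 13.9 and 6.19 CPM with the implant, against 12.1, 4.45 and 9.98 CPM in NC. Eif2ak2, the kinase PKR that halts translation upon binding double-stranded RNA, had 73.0, 97.0 and 51.0 CPM with the implant, against 99.9, 59.6 and 88.8 CPM in NC. For all 3, implant 2 and NC 1 were the 2 highest libraries and implant 3 and NC 2 the 2 lowest. Their median log2 fold change was -0.08, with 1 of 3 positive.

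Of the 10 antiviral effectors, 5 had a positive log2 fold change and the median was 0.01. Ifit3 and Ifit2 encode proteins with tetratricopeptide repeats that act in the recognition of viral RNA. Ifit3 had 37.6, 63.6 and 17.2 CPM in implant 1, 2 and 3, against 29.6, 7.80 and 38.1 CPM in NC 1, 2 and 3. Of the 3 implant values 2 lay within the NC range, and the log2 fold change of 0.65 ± 0.68 (SE), the highest of the 37, had an unadjusted p of 0.38. Ifit2 had 78.1, 108 and 40.9 CPM with the implant, against 81.5, 41.0 and 94.2 CPM in NC, and its groups overlapped almost wholly. Mx1, a dynamin-like GTPase that traps viral nucleoproteins, had 42.6, 71.6 and 23.6 CPM with the implant, against 121, 27.5 and 36.7 CPM in NC. The high NC 1 library set its sign, as the log2 fold change was -0.42 ± 0.67 (SE) with all libraries and 0.53 without NC 1. Mx2, its neighbour in the family, was also highest in NC 1, at 91.4 CPM. In 2 libraries neither count of this pair was whole while their sum was, so some reads were divided between them. The 4 OAS-family genes, whose enzymes make the messenger that activates RNase L or are relatives of these enzymes, spanned 3.55-fold to 7.74-fold over the 6 libraries. Oas1a, whose promoter held both motifs, had 15.5, 28.3 and 5.01 CPM with the implant, against 22.1, 6.36 and 22.0 CPM in NC.

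Rsad2 and Cmpk2 departed from this order. Rsad2 encodes viperin, an enzyme that makes a chain-terminating nucleotide from CTP, and Cmpk2 encodes a nucleotide kinase that can supply CTP. Their start sites lie 14730 bases apart on chromosome 6 in GRCr8. Rsad2 had 59.6, 87.1 and 176 CPM in implant 1, 2 and 3, against 12.0, 7.51 and 442 CPM in NC 1, 2 and 3. The 3 implant values lay between NC 1 and NC 3, and the 6 libraries spanned 58.9-fold, the widest of the 37 genes. Cmpk2 had 13.7, 21.5 and 26.2 CPM with the implant, against 13.7, 5.61 and 53.9 CPM in NC. Both genes were highest in NC 3 and second in implant 3, the library that was lowest for 9 other interferon genes. The log2 fold change of Rsad2 was -0.51 ± 1.48 (SE) with all libraries and 3.46 without NC 3, and edgeR called it in neither case. That of Cmpk2 was -0.25 ± 0.79 (SE) with all libraries and 1.07 without NC 3. Implant 3 at 14.8% and NC 3 at 25.2% were also the libraries with the largest haemoglobin shares. The monocyte and macrophage markers had their highest log2 levels in NC 3 (0.28) and implant 3 (0.20). The neutrophil markers were highest in NC 3 (1.19), with implant 2 (0.98) above implant 3 (0.79). NC 3 was also highest for the B and plasma cell, endothelial and adipocyte lists. The part of blood cells and of these other cell types in Rsad2 and Cmpk2 was not tested.

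**Figure D4:**
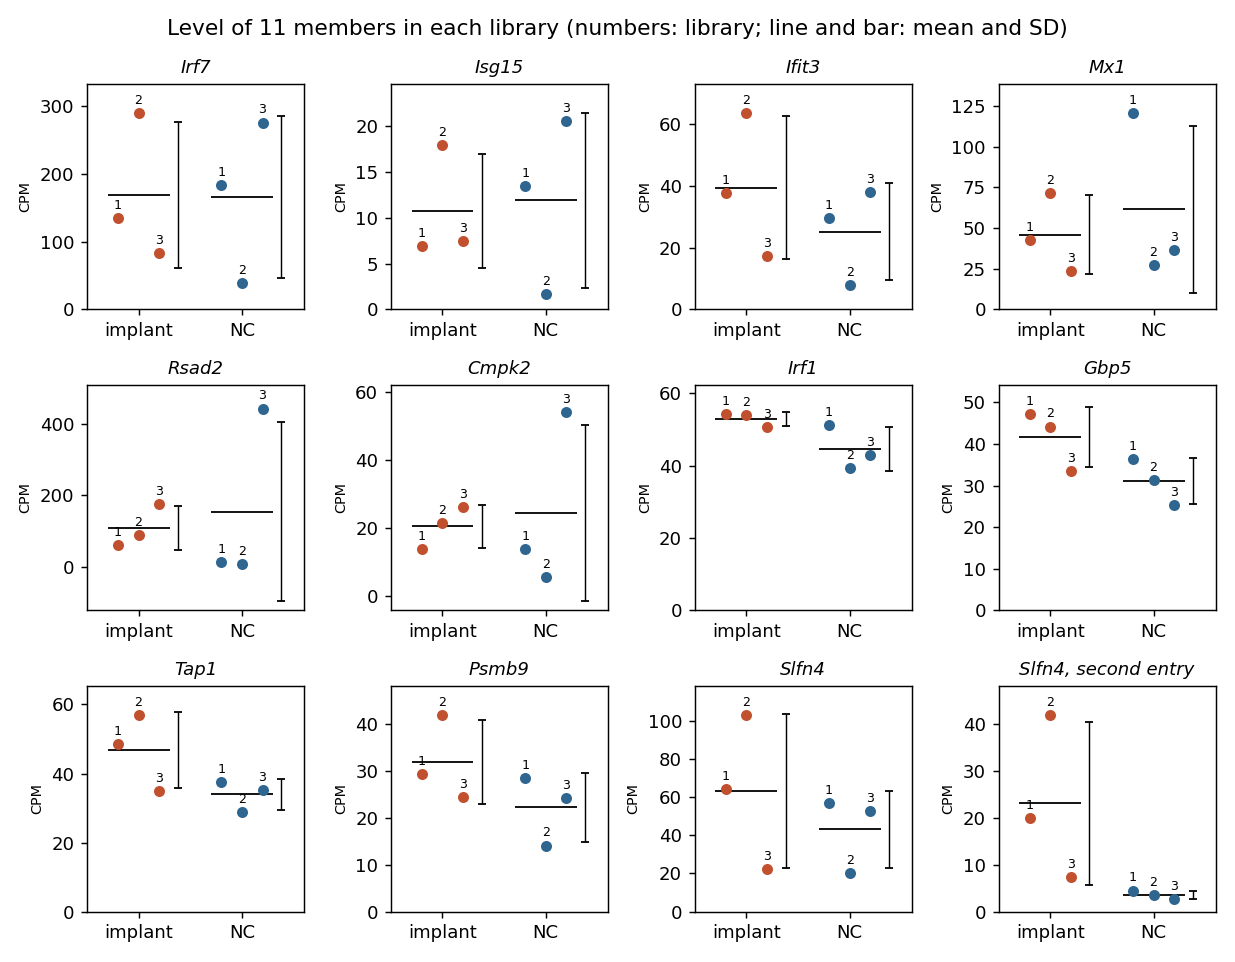
CPM (y axis) of 11 genes in each library, implant libraries in orange left of NC libraries in blue, with library numbers above the points and mean ± SD as line and bar; Slfn4 has 2 panels for its 2 entries. The groups overlap in every panel except the second entry of Slfn4, and Rsad2 and Cmpk2 are highest in NC 3 while Mx1 is highest in NC 1.

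Isg15, the ubiquitin-like modifier, had 6.91, 17.99 and 7.43 CPM in implant 1, 2 and 3, against 13.4, 1.68 and 20.6 CPM in NC 1, 2 and 3. NC 2 and NC 3 were the lowest and the highest of all 6 libraries, a span of 12.3-fold. Usp18, the protease that removes ISG15 and restrains the type I receptor, had 12.5, 19.6 and 6.19 CPM with the implant, against 16.8, 8.03 and 13.2 CPM in NC. The log2 fold changes were -0.14 ± 0.85 and 0.01 ± 0.47 (SE), with overlapping groups.

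The 8 other interferon-induced genes had a median log2 fold change of 0.08, with 4 of 8 positive, and implant 2 was the highest library for 7 of them. Ifi27, which encodes a small membrane protein of mitochondria and the nuclear envelope, had 164, 239 and 117 CPM with the implant, against 204, 84.8 and 268 CPM in NC. Parp14, an ADP-ribosyltransferase, had 125, 158 and 102 CPM with the implant, against 136, 81.8 and 125 CPM in NC. Both genes showed overlapping groups, as did Ifi44, Ifi44l, Rtp4, Xaf1 and Parp9.

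Slfn4, a Schlafen gene known in the mouse from myeloid cells, had 2 entries in the table. The entry used here (ENSRNOG00000063541) had 64.4, 103 and 22.3 CPM in implant 1, 2 and 3, against 56.6, 20.1 and 52.8 CPM in NC 1, 2 and 3, a log2 fold change of 0.55 ± 0.62 (SE). The second entry (ENSRNOG00000057092), reported after its values were seen, had 20.02, 41.9 and 7.37 CPM with the implant, against 4.52, 3.58 and 2.67 CPM in NC. Its groups did not overlap, and its log2 fold change was 2.68 ± 0.64 (SE). DESeq2 called it at an adjusted p of 0.032, while edgeR gave it an adjusted p of 1, and over the other alternatives that p ran between 0.42 and 1. Its log2 fold change was 1.93 without implant 2 and at most 3.10 with any other library left out. In all 6 libraries neither entry had a whole count, so reads were divided by estimation. Their sum was whole in only 2 of the 6, so some reads were also divided with other genes. The sum of the entries thus depends on estimation too. With the 2 entries summed, the levels were 84.3, 145 and 29.7 CPM with the implant, against 61.2, 23.7 and 55.5 CPM in NC. The sum overlapped between the groups, with a log2 fold change of 0.88 ± 0.62 (SE) and a DESeq2 adjusted p of 1.00.

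The guanylate-binding proteins are GTPases that attack pathogens inside cells and are strongly induced by interferon gamma. Gbp2 had 178, 180 and 123 CPM in implant 1, 2 and 3, against 170, 104 and 126 CPM in NC 1, 2 and 3. Gbp5, which also promotes inflammasome assembly, had 47.1, 44.2 and 33.4 CPM with the implant, against 36.4, 31.4 and 25.4 CPM in NC. For Gbp5 the only overlap was implant 3 below NC 1, and the log2 fold change was 0.42 ± 0.19 (SE) at an unadjusted p of 0.074. Gbp5 was the only one of the 37 genes to be lowest in NC 3. Both kept a positive log2 fold change whichever library was left out, at 0.11 to 0.49 for Gbp2 and 0.29 to 0.57 for Gbp5.

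The immunoproteasome subunits replace the constitutive catalytic subunits and favour peptides that fit MHC class I. Psmb8 had 38.4, 47.4 and 46.9 CPM in implant 1, 2 and 3, against 59.5, 33.8 and 55.7 CPM in NC 1, 2 and 3. Psmb9 had 29.4, 41.8 and 24.5 CPM with the implant, against 28.5, 14.1 and 24.2 CPM in NC. Psmb10 had 29.0, 40.8 and 23.8 CPM with the implant, against 29.4, 20.3 and 27.8 CPM in NC. NC 2 was the lowest library for all 3, and the log2 fold changes were -0.17, 0.52 and 0.27, with unadjusted p-values of 0.50, 0.15 and 0.31. The subunits they replace were steadier, with Psmb5 at 42.0, 55.7 and 46.9 CPM with the implant and 48.5, 47.9 and 51.5 CPM in NC, and with Psmb6 and Psmb7 spanning 1.24-fold and 1.30-fold over the 6 libraries. The mean log2 level of Psmb8, Psmb9 and Psmb10 minus that of Psmb5, Psmb6 and Psmb7, centred on the 6 libraries, was 0.08, 0.34 and -0.12 in implant 1, 2 and 3 and 0.31, -0.61 and 0.01 in NC 1, 2 and 3. Implant 2 was the highest and NC 2 the lowest library of this measure, and the groups overlapped.

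Tap1 and Tap2 form the transporter that carries peptides into the endoplasmic reticulum, where tapasin (Tapbp) helps load them onto the class I heavy chain and its partner B2m. The fold changes of all 4 were positive, at a median of 0.17 (log2). Tap1 had 48.5, 56.8 and 35.0 CPM in implant 1, 2 and 3, against 37.6, 29.0 and 35.3 CPM in NC 1, 2 and 3. The implant 3 value lay within the NC range and the other 2 above it, with a log2 fold change of 0.46 ± 0.21 (SE) and an unadjusted p of 0.069, the smallest of the 37. Tap1 and Psmb9 lie head to head, with start sites 457 bases apart. Neither had a whole count in any of the 6 libraries, while their sum was whole in 5 of 6 within 0.005, so estimation divided reads between these neighbours too. Tap2 had 38.9, 49.6 and 47.3 CPM with the implant, against 43.4, 35.4 and 47.6 CPM in NC. Tapbp had 53.0, 69.0 and 46.2 CPM with the implant, against 52.5, 33.1 and 57.3 CPM in NC. B2m had 1981, 2687 and 2119 CPM with the implant, against 2052, 1443 and 3184 CPM in NC, a log2 fold change of 0.02 ± 0.34 (SE). For Tap2, Tapbp and B2m the groups overlapped, and NC 2 was again the lowest library.

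Upstream of these genes, interferon transcripts were at or near 0. Of 11 ligand symbols 8 were in the table, and Ifnb1, Ifna1, Ifna4, Ifnk, Ifne, Ifnl1 and Ifnl3 had a count of 0 in all 6 libraries. Ifng had counts of 0, 0 and 2 in implant 1, 2 and 3, against 0, 0 and 0 in NC 1, 2 and 3. None passed the filter, and no difference was detectable at this depth. Among the receptors, Ifnar1, a chain of the type I receptor, had 146, 131 and 132 CPM with the implant, against 125, 135 and 125 CPM in NC. Ifngr1, the ligand-binding chain of the interferon gamma receptor, had 113, 117 and 95.5 CPM with the implant, against 114, 89.6 and 106 CPM in NC. The spans of Ifnar1, Ifnar2, Ifngr1 and Ifngr2 over the 6 libraries were 1.16-fold to 1.34-fold, beside a median of 2.70-fold for the 37 downstream genes. Ifnlr1, a chain of the type III receptor, differed more between libraries. It had 19.8, 15.1 and 11.6 CPM with the implant, against 17.6, 10.9 and 9.40 CPM in NC, a span of 2.11-fold. Il10rb, the chain that receptor shares with other cytokine receptors, was near 0. Its estimated counts were 14.2, 22.8 and 0 in the implant libraries and 0, 16.1 and 6.18 in the NC libraries. In 4 libraries neither its count nor that of Ifnar2 was whole while their sum was. Some reads were thus divided between these genes by estimation, and the Il10rb counts depend on that division.

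The wider pathway was read from lists of 126 further symbols, of which 104 were in the table and 95 were tested. The symbols outside the table were not analysed here. Of the 95, edgeR called 0, DESeq2 called 0, and 57 had a fold change above 1, at a median of 0.06 (log2). DESeq2 gave no p-value for Isg20, which is among the 95. At an unadjusted p under 0.05 there was 1, RT1-CE16, an MHC class I heavy chain. It had 317, 455 and 94.5 CPM in implant 1, 2 and 3, against 90.4, 47.9 and 102 CPM in NC 1, 2 and 3. Its log2 fold change was 1.85 ± 0.60 (SE) at an unadjusted p of 0.021, the groups overlapped, and its counts were not whole in any library, so they depend on how reads were divided among related class I genes. The groups did not overlap for 5 of the 95, all higher with the implant, where 2.81% of all genes were higher without overlap and 5.69% did not overlap in either direction. These were Tyk2, a Janus kinase of the type I receptor, Tlr7, an endosomal sensor of single-stranded RNA, Sting1, the adaptor of cytosolic DNA sensing, Tbk1, the kinase downstream of it, and Cd274, the immune checkpoint ligand PD-L1. Tlr7 had 31.6, 32.8 and 33.3 CPM with the implant, against 28.5, 27.6 and 28.3 CPM in NC. Cd274 had 15.7, 19.1 and 19.9 CPM with the implant, against 14.6, 14.9 and 11.1 CPM in NC. Sting1 had 10.8, 10.6 and 8.90 CPM with the implant, against 8.36, 7.74 and 7.08 CPM in NC. The log2 fold changes of these 5 genes lay between 0.08 and 0.43, and their smallest unadjusted p was 0.051, for Cd274. The 33 further interferon-induced genes tested had log2 levels of 0.12, 0.58 and -0.27 in implant 1, 2 and 3, against 0.12, -0.81 and 0.26 in NC 1, 2 and 3. That order of libraries was close to that of the 37 genes, with implant 2 highest and NC 2 lowest.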

How the data were processed

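Messenger RNA was measured in 6 libraries of rat sciatic nerve, 3 per group, grouped by sample titles. Per the labels' protocols, oligo(dT) beads and a NEBNext Ultra kit were used, which does not mark the strand, so overlapping and antisense reads cannot be told apart. HISAT2, StringTie 1.3.1, Bowtie2 2.2.8 and DESeq2 appear in the submitters' processing notes; no counter or genome build is given in the sources used here. Deposited values are estimated counts (expected counts) per gene that the authors did not scale by library total, with 1898 to 2085 genes per library not whole. They were rounded. The treated columns lack GDNF in their names and were matched to the only group with that material.

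After filterByExpr and TMM scaling, edgeR 4.0.16 in R 4.3.3 was fitted to all genes with group alone in the model (two-sided quasi-likelihood test). A gene was called at an adjusted p under 0.05. Standard errors are the log2 fold change over the root of F, and 95% intervals use the degrees of freedom of the fit (median 6.1). List levels are means of log2 CPM (prior count 2). Alternatives were DESeq2 1.42.0, limma-voom (3.58.1), RLE and upper quartile scaling, TMM without haemoglobin genes, other filters, a replicate block, haemoglobin share as a covariate, each library left out, and, added after seeing the data, the summed Slfn4 entries. The test was tested on simulated counts. No pair of libraries agreed within sampling noise (lowest chi-square per degree of freedom 86.45).

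The 37 genes and all lists were chosen with earlier results of these data known. Values per library are given for the 2 genes of each role group with the highest mean CPM, all genes of groups of 2 or 3, pathway genes with an unadjusted p under 0.05 or groups that do not overlap, receptors and ligands, and, chosen after their values were seen, Irf1, Mx1, Mx2, Ifit3, Oas1a, Cmpk2, Slfn4, Tap1 and Tap2.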

Additional observations from a re-analysis of the deposited data

How the results depend on the processing

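In all alternatives, none of the 37 genes was called over all genes. The count of genes called over all genes was 0 in each setting except DESeq2, with 11, and DESeq2 put the second Slfn4 entry past the threshold. Their median log2 fold change stayed between -0.03 and 0.17 under other scalings, filters, tools and terms and ran over -0.21 to 0.31 when 1 library was left out. The cause of these shifts was not tested. With a library left out, 0 to 7 of the 37 had groups that do not overlap, against 11% to 17.7% of all genes.

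Fold changes of 31 genes were refitted under every alternative, and 14 changed sign when some library was left out. Their ranges of log2 fold change were -0.21 to 0.37 for B2m, -0.72 to 1.07 for Cmpk2, -0.18 to 0.46 for Dhx58, -0.42 to 0.037 for Eif2ak2, -0.45 to 0.25 for Ifi27, -0.28 to 0.12 for Ifih1, -0.28 to 0.37 for Ifit2, -0.61 to 0.60 for Irf7, -0.73 to 0.50 for Isg15, -0.90 to 0.53 for Mx1, -0.029 to 0.32 for Parp14, -1.07 to 3.46 for Rsad2, -0.12 to 0.12 for Stat2 and -0.44 to 0.34 for Usp18. Signs also turned for Stat2 (-0.009) and Usp18 (-8e-04) under RLE scaling, for Stat2 (-0.0086) and Usp18 (-9e-04) in DESeq2, and for Rsad2 (1.59), Cmpk2 (0.38), Isg15 (0.41) and Usp18 (-0.065) in limma-voom. With haemoglobin share as a covariate they turned for Irf7 (-0.40), Stat2 (-0.084), Mx1 (0.038), Ifit2 (-0.14), Usp18 (-0.018) and B2m (-0.29). Whether replicate numbers pair the samples could not be told. Deviations of the genes from their group means correlated at 0.099, -0.72 and 0.055 between same-numbered libraries. Between libraries of other numbers they correlated at -0.61 to 0.52. Centring each group on its own mean forces values of both signs, so these correlations do not decide the question. With the replicate block, 0 genes were called, the median of the 37 was 0.11, and Rsad2 (1.66), Cmpk2 (0.26), Isg15 (0.047) and Usp18 (-0.088) changed sign. Depth limits the interferon ligands, which had at most 2 counts in a library.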

Other observations

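The pattern of Rsad2, high in implant 3 and NC 3, was looked for among the 33 further interferon-induced genes tested, after its values were seen. Of the 33, 7 were highest in NC 3 (21.2%), against 24.8% of all genes, and 1 of them was second in implant 3 (3.03%), against 5.25% of all genes. This was Isg20. Isg20, a ribonuclease that degrades viral RNA, had 6.67, 13.6 and 15.0 CPM in implant 1, 2 and 3, against 3.48, 1.79 and 36.9 CPM in NC 1, 2 and 3. Ifit1bl had 28.7, 47.4 and 25.2 CPM with the implant, against 8.36, 6.24 and 51.0 CPM in NC, with implant 2 second to NC 3. Ifit1 had 47.0, 71.8 and 65.4 CPM with the implant, against 77.3, 30.3 and 160.3 CPM in NC, with NC 1 second to NC 3. In 5 libraries neither count of Ifit1 and Ifit1bl was whole while their sum was. Some reads were thus divided between them by estimation, and their separate orders depend on that division. Herc6, the rodent enzyme that attaches ISG15, had its lowest value in implant 3 at 8.79 CPM and its highest in NC 3 at 31.2 CPM. DESeq2, whose default flagging of outlying counts was left on, gave no p-value for Isg20. No other outlier test was made, since each group has 3 libraries.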
